A study of Mus musculus with 4 samples.

Results

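The presynaptic active zone scaffold genes are 10 genes for large proteins that hold synaptic vesicles and calcium channels together at the site of transmitter release: Pclo, Bsn, Rims1, Rims2, Unc13a, Erc1, Erc2, Ppfia2, Ppfia3 and Rimbp2. They were described in RNA precipitated with an antibody against 4E-T and in RNA precipitated with control IgG. The tissue was the ventricular-subventricular zone (V-SVZ), the stem cell niche lining the lateral ventricles, of P7 or P8 (postnatal day) mice of the CD1 strain, wild type in genotype. 4E-T, the product of Eif4enif1, binds the cap-binding protein eIF4E, represses translation and is found in P-bodies. Each antibody had 2 libraries, 1 from each of 2 numbered experiments. Nothing in the labels states that the experiments drew on different animals, so the spread that p-values rest on is that of these 4 libraries and may be technical. All 4 libraries came from the same genotype and strain, and the age of each was given as P7 or P8. An input library was not analysed here, so levels are those of a precipitate and not of the tissue.

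The genes were chosen by name as active zone scaffolds, with the 4E-T against IgG comparison in view and the fold change of Pclo already known. The fold changes of all 10 are therefore given as a description. The 10 genes took part in the fits over all genes, whose calls are listed further on without being read as evidence. All 10 stood in the deposited table of 35147 genes, each as a single row, and all 10 passed the minimum mean of 1 FPKM (a level scaled for gene length and library size), which kept 17651 genes. They rested on 304 to 13794 recovered reads a gene and library.

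At a synapse, the active zone is the patch of presynaptic membrane where vesicles dock, are primed and fuse. Piccolo and Bassoon, the products of Pclo and Bsn, are related giant proteins that span the zone and cluster vesicles. RIM proteins bind the vesicle GTPase Rab3, Munc13 and calcium channels, Munc13-1 primes vesicles for fusion, and ELKS proteins, liprins-alpha and RIM-binding proteins join these parts to each other. In the postnatal V-SVZ such RNAs are best known from neurons, and newborn neuroblasts that leave the niche also make synaptic proteins as they mature.

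The libraries held 23006357 and 28749439 gene reads in 4E-T and 14421019 and 24780150 in IgG. IgG replicate 2 was closer to 4E-T replicate 2 (Pearson's r of 0.947 over tested genes) than to IgG replicate 1 (r of 0.922). The 4E-T libraries were the closest pair (r of 0.973), and 4E-T replicate 1 was about as close to IgG replicate 2 (r of 0.926) as to IgG replicate 1 (r of 0.922). The deposited FPKM are not on 1 scale: gene reads per unit of the FPKM denominator, relative to IgG replicate 1, were 1.43 and 1.84 in 4E-T and 1.67 in IgG replicate 2. The median log2 fold change of all tested genes on log2(FPKM + 1) was 0.18, and -0.02 after quantile normalization. Changes are therefore also given relative to the median of all genes.

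Pclo stood apart from the other scaffold genes. It had 26.7 and 30.0 FPKM in the 4E-T libraries, against 4.01 and 7.11 FPKM in the IgG libraries. Both 4E-T libraries lay far above both IgG libraries. Ppfia2, which encodes liprin-alpha-2, had 9.31 and 15.0 FPKM in 4E-T and 4.40 and 7.07 FPKM in IgG, and the groups again did not overlap. Erc2, which encodes the brain ELKS protein CAST, had 21.5 and 29.6 FPKM in 4E-T and 12.3 and 21.2 FPKM in IgG. Its groups did not overlap either, but 4E-T replicate 1 and IgG replicate 2 nearly met. In FPKM the other 7 genes overlapped between antibodies. FPKM of both 4E-T libraries above both IgG libraries were thus seen in 3 of 10 scaffold genes, against 32.6% of all tested genes. In RPM, reads scaled to the library's total of gene reads, the same 3 genes had both 4E-T libraries above both IgG libraries, against 22.9% of all tested genes. Rims1 alone had both 4E-T libraries below both IgG libraries in RPM, with 4E-T replicate 2 and IgG replicate 1 nearly equal. The share of all tested genes with that order was not counted.

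**Figure D1:**
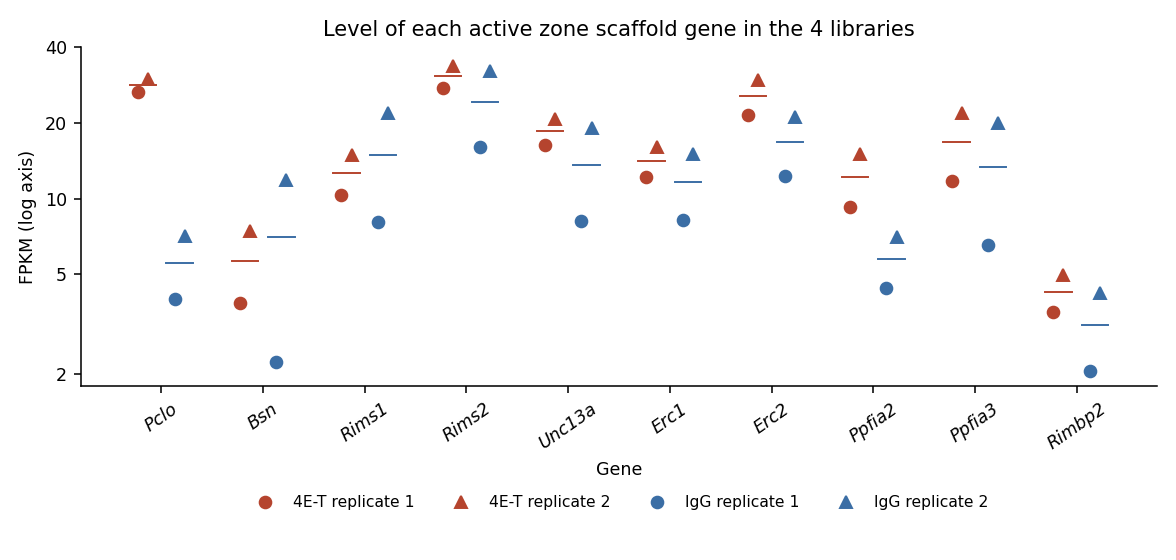
FPKM on a log axis for each of the 10 genes, with 4E-T libraries in red and IgG libraries in blue, replicate 1 as circles and replicate 2 as triangles, and a line at the mean of each group. The 4E-T points of Pclo, at 26.7 and 30.0 FPKM, lie above its IgG points, at 4.01 and 7.11 FPKM, by more than those of any other of the 10 genes.

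Pclo encodes Piccolo and lies on mouse chromosome 5 at 14514906 to 14863465 (GRCm38.p6, RefSeq gene span). It averaged 28.3 ± 2.36 FPKM in 4E-T and 5.56 ± 2.19 FPKM in IgG (SD, n = 2 for each antibody, as for all such values). Its log2 fold change was 2.20 (SE 0.39), or 2.02 above the median of all genes, and ranked 16th of 17651 tested genes. Within experiment 1 its FPKM in 4E-T was 6.66 times that in IgG, and within experiment 2 it was 4.22 times. As a share of gene reads, which does not use the FPKM scale, the ratio was 4.65 (95% exact counting interval 4.42 to 4.89) in experiment 1 and 3.83 (3.69 to 3.99) in experiment 2. These intervals cover counting error only, since reads without molecular identifiers are not independent molecules. The authors' deposited table gave a log2 fold change of 2.38 for Pclo.

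Bsn, the gene of the related giant Bassoon on chromosome 9 (108096022 to 108190419, GRCm38.p6), did not follow Pclo. It had 3.86 and 7.46 FPKM in 4E-T and 2.24 and 11.9 FPKM in IgG, with the IgG libraries on either side of the 4E-T libraries. The 4E-T to IgG ratio of read shares was 1.20 (95% exact counting interval 1.10 to 1.31) in experiment 1 and 0.57 (0.543 to 0.599) in experiment 2. FPKM of Pclo over FPKM of Bsn, a ratio within a library, was 6.91 and 4.03 in the 4E-T libraries and 1.79 and 0.599 in the IgG libraries. Bsn turned on single libraries of both antibodies. Its log2 fold change relative to all genes was -0.20 with all libraries. It was -1.01 without IgG replicate 1 and 0.53 without IgG replicate 2. Leaving out 4E-T replicate 1 gave 0.07, and leaving out 4E-T replicate 2 gave -0.48. Pclo stood at 1.85 and 2.09 without IgG replicate 1 and 2, and at 1.97 and 2.05 without 4E-T replicate 1 and 2.

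The RIM genes differed little between the antibodies relative to their spread. Rims2 (RIM2) had 27.6 and 33.8 FPKM in 4E-T and 16.1 and 32.3 FPKM in IgG. Its ratio of read shares was 1.20 in experiment 1 and 0.951 in experiment 2. Rims1 (RIM1) had 10.4 and 14.9 FPKM in 4E-T and 8.10 and 21.9 FPKM in IgG, and was the lowest of the 10 by log2 fold change, at -0.10 (SE 0.48). Its ratio of read shares was 0.894 in experiment 1 and 0.617 in experiment 2, so its share was lower in 4E-T in both experiments. A ratio of 1 need not be that of the median gene. Relative to the median of all genes on log2(FPKM + 1), Rims1 stood at 0.0005 in experiment 1 and -0.61 in experiment 2. Rims1 in RPM was 68.3 and 76.3 in 4E-T and 76.4 and 124 in IgG, and 4E-T replicate 2 and IgG replicate 1 were nearly equal.

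Unc13a encodes Munc13-1, the vesicle priming factor. It had 16.4 and 20.8 FPKM in 4E-T and 8.16 and 19.1 FPKM in IgG. Only IgG replicate 1 was far from the others, and the ratio of read shares was 1.40 in experiment 1 and 0.988 in experiment 2. Rimbp2, the gene of a RIM-binding protein that links RIM to calcium channels, was the lowest in level, with 3.53 and 4.96 FPKM in 4E-T and 2.07 and 4.23 FPKM in IgG. Its ratios of read shares were 1.19 and 1.07 in experiments 1 and 2, and the interval of experiment 2 (0.959 to 1.18) included 1.

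The ELKS pair and the liprin pair each held a gene with both 4E-T libraries highest and a gene without. Erc1, the ELKS gene that is active in many tissues, had 12.2 and 16.1 FPKM in 4E-T and 8.26 and 15.0 FPKM in IgG. Its read shares were close to equal, with ratios of 1.03 (95% exact counting interval 0.967 to 1.10) in experiment 1 and 0.971 (0.923 to 1.02) in experiment 2. Erc2 had ratios of 1.22 and 1.27, above 1 by more than counting error in both. Ppfia3, which encodes liprin-alpha-3, had 11.7 and 21.9 FPKM in 4E-T and 6.57 and 20.1 FPKM in IgG. Its ratios were 1.24 and 0.991 in experiments 1 and 2, against 1.48 and 1.93 for Ppfia2. FPKM of Ppfia2 over FPKM of Ppfia3 was 0.795 and 0.686 in the 4E-T libraries and 0.669 and 0.353 in the IgG libraries. That order held between antibodies, but by little between 4E-T replicate 2 and IgG replicate 1.

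**Figure D2:**
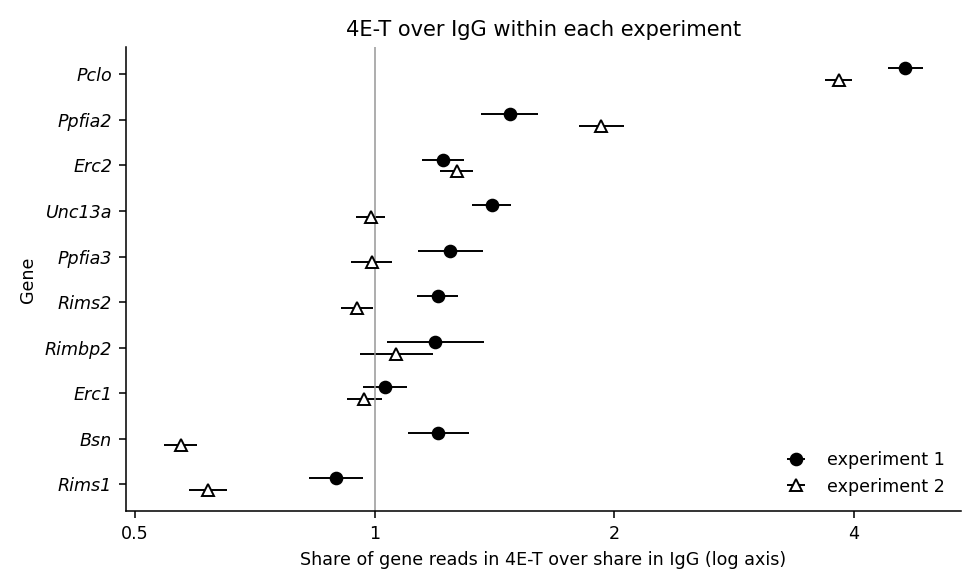
Share of gene reads in 4E-T divided by the share in IgG on a log axis, for each gene, with experiment 1 as filled circles, experiment 2 as open triangles and 95% exact counting intervals as bars. Pclo stands at 4.65 and 3.83 and Ppfia2 at 1.48 and 1.93, while Bsn lies at 1.20 in experiment 1 and 0.57 in experiment 2. A ratio of 1 marks equal shares, which need not be where the median gene lies.

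Over the 10 genes the median log2 fold change was 0.42, against 0.18 over all tested genes, and 8 of 10 lay above the median of all genes. Without Pclo the median of the other 9 was 0.40. In experiment 1 all 10 lay above the median of all genes (Rims1 only just), and in experiment 2 only 7 did, with Rims2 just below it. The median of the 10 relative to all genes was 0.43 in experiment 1 and 0.04 in experiment 2. Without IgG replicate 1 it was -0.06, and without IgG replicate 2 it was 0.52, so the size and sign of the group's median rested on which IgG library was used. In bulk precipitates, the cell types that gave these RNAs cannot be told apart.

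The make-up of the scaffold reads differed between the antibodies mainly through Pclo. Of all reads on the 10 genes, Pclo took 39.1% and 33.6% in the 4E-T libraries and 14.3% and 11.2% in the IgG libraries. Bsn took 4.49% and 6.62% in 4E-T and 6.34% and 14.8% in IgG. Rims1 took 4.88% and 5.35% in 4E-T and 9.25% and 11.0% in IgG. These are parts of the same whole, so a larger part for Pclo makes the parts of the others smaller. In RPM, scaled to all gene reads, Bsn had 62.9 and 94.6 in 4E-T and 52.4 and 166 in IgG. Rims1 had 68.3 and 76.3 in 4E-T and 76.4 and 124 in IgG. The 10 genes together held 0.140% and 0.143% of gene reads in 4E-T and 0.0826% and 0.112% in IgG, with no overlap. Without Pclo, the other 9 held 0.0853% and 0.0948% in 4E-T and 0.0708% and 0.0995% in IgG, and the antibodies overlapped.

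**Figure D3:**
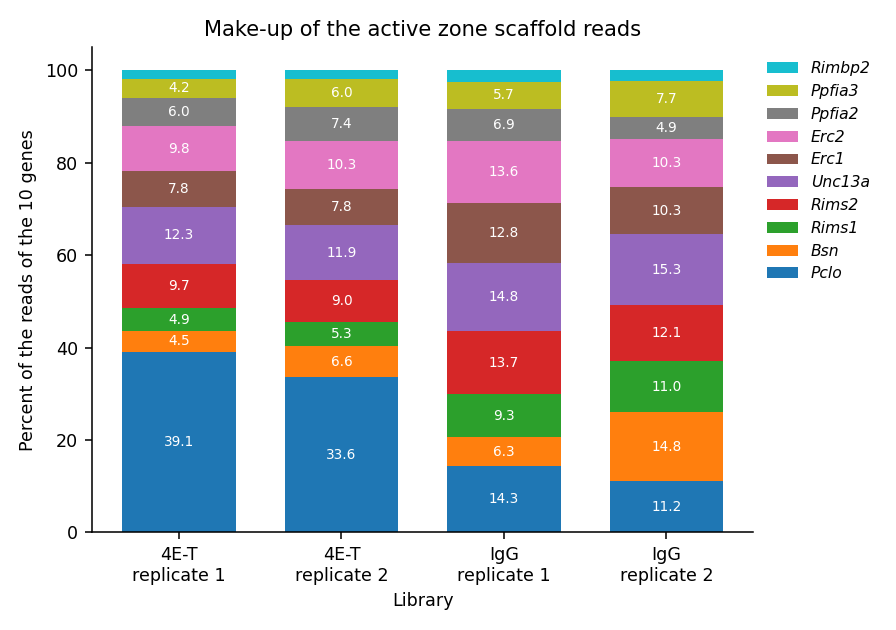
Stacked percent of the reads on the 10 genes in each library, with the 4E-T libraries to the left of the IgG libraries and Pclo at the base. Pclo makes up 39.1% and 33.6% of these reads in 4E-T and 14.3% and 11.2% in IgG.

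In order of level, per length, the 10 genes in 4E-T ran from Rims2 (30.7 ± 4.38 FPKM) through Pclo, Erc2 (25.5 ± 5.72), Unc13a (18.6 ± 3.13), Ppfia3 (16.8 ± 7.20), Erc1 (14.1 ± 2.74), Rims1 (12.6 ± 3.19), Ppfia2 (12.2 ± 4.04) and Bsn (5.66 ± 2.54) to Rimbp2 (4.25 ± 1.01). In IgG the order was Rims2 (24.2 ± 11.5), Erc2 (16.7 ± 6.26), Rims1 (15.0 ± 9.75), Unc13a (13.6 ± 7.76), Ppfia3 (13.3 ± 9.53), Erc1 (11.6 ± 4.79), Bsn (7.06 ± 6.81), Ppfia2 (5.74 ± 1.89), Pclo and Rimbp2 (3.15 ± 1.53). No neighbours in either order differed by more than the sum of their SDs. Ranks within a library do not use its scale: Rims2 was the highest and Rimbp2 the lowest of the 10 in all 4 libraries. Pclo was the 2nd highest in both 4E-T libraries and the 8th in both IgG libraries. Among all 17651 tested genes, Pclo ranked 2973 and 3389 by level in 4E-T and 10684 and 9026 in IgG.

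Calls over all genes gave the background for these values. With no term for experiment, 0 of the 10 genes passed limma in either direction, and of all tested genes 0.00567% (1 gene) passed as higher and 0% as lower. The unadjusted p was under 0.05 for 1982 higher and 315 lower genes, 2 of the higher ones being scaffold genes. With the experiment number as a block, 2 of 10 were called higher (Pclo and Ppfia2), against 17.5% of all genes, and 0 lower, against 4.44%. The same 2 and no others were called by limma-voom on the recovered reads with the block (13.6% of all genes higher, 11% lower), by the blocked limma fit after quantile normalization (10.4% and 9.23%), and by the authors' deposited table (10.7% and 2.61%). Without IgG replicate 1, limma with no block called Pclo higher (4.86% of genes) and Bsn lower (0.889%). Without IgG replicate 2 it called 5 of 10 higher, namely Pclo, Ppfia2, Ppfia3, Unc13a and Bsn (13.8% of genes), and 0 lower (6.2%). In these last 2 fits the IgG arm is 1 library, which is assumed to vary like the 4E-T libraries, so the calls of Bsn in both directions show only that its IgG libraries differ. Since the comparison itself was known when the genes were chosen, nothing is read from these counts.

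**Figure D4:**
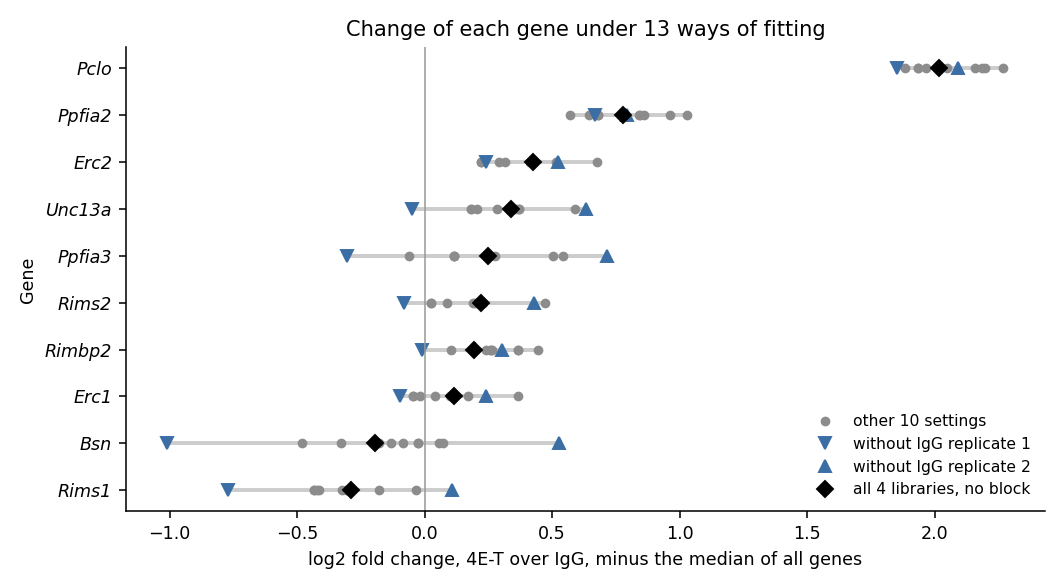
Log2 fold change of each gene, 4E-T over IgG, minus the median of all genes, under 13 ways of fitting (12 for Rimbp2). The black diamond is the fit on all 4 libraries with no block, blue triangles are fits without 1 IgG library and grey points are the others; Pclo stays between 1.85 and 2.27, and Bsn runs from -1.01 to 0.53.

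The scaffold genes share long gene models. Relative to the median tested gene, their models were 1.72 (Rims2) to 7.19 (Pclo) times as long, and 7 of 10 were among the longest 10% of tested genes. Those 1766 longest genes had a median log2 fold change of 0.23, and 2 of them, Pclo included, reached the value of Pclo. Bsn, with a model 0.794 times the length of that of Pclo, had a log2 fold change of -0.01. The 30 other tested genes at least as long as Bsn had log2 fold changes of -0.49 to 1.11, with a median of 0.11. The part that length has in the result was not tested.

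Genes with a like profile over the 4 libraries were sought among the 7487 genes that averaged 10 FPKM or more. The 5 nearest to the mean profile of the scaffold genes, by Euclidean distance of centred log2(FPKM + 1), were Lars, G3bp1, Mark4, Akt1 and Slc27a1. Lars, a leucyl-tRNA synthetase gene, had 21.3 and 30.5 FPKM in 4E-T and 11.7 and 24.5 FPKM in IgG, at a distance of 0.03. G3bp1, a stress granule protein gene, had 24.5 and 34.8 FPKM in 4E-T and 13.1 and 29.0 FPKM in IgG. The log2 fold changes of the 5 genes were 0.53 to 0.62, a range largely set by choosing them for nearness to the mean profile.

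Other genes of the synapse were read in 6 lists holding 147 tested genes, none of them among the 10. Pooled, 81 of 147 lay above the median of all genes and their median was 0.06 above it, but single lists ran from 0.15 below it (vesicle and SNARE genes) to 0.29 above it (calcium channel genes, above the 0.24 of the scaffold genes). None passed limma without a block in either direction. The unadjusted p of that fit was under 0.05 for 5 higher and 0 lower genes, against 1982 and 315 of all 17651 tested genes. In the blocked limma fit on FPKM 23 were higher (15.6%, against 17.5% of all genes) and 2 lower (1.36%, against 4.44%). After quantile normalization the split turned to 12 higher (8.16%, against 10.4%) and 20 lower (13.6%, against 9.23%). In the blocked limma-voom fit on reads it was 15 higher (10.2%, against 13.6%) and 7 lower (4.76%, against 11%). Counts from the fits that leave out an IgG library are not given for these lists, since their IgG arm is a single library. Below, "rose" and "fell" are calls of the blocked limma fit on FPKM, whose adjusted p-values are given. Ppfibp2, Vamp1, Cacna1a, Slitrk1, Cnksr2 and Dnm2 were each named for the highest log2 fold change of their list. That choice favours low p-values and groups without overlap, so neither is independent support.

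Close relatives and binding partners of the scaffold proteins (20 tested of 22) had a median equal to that of all genes, which was -0.30 relative to them without IgG replicate 1 and 0.31 without IgG replicate 2. In this list 3 rose (15% of it, against 17.5% of all genes) and 0 fell, against 0 higher and 2 lower after quantile normalization and 1 higher and 0 lower on reads. The 3 were liprin genes (Ppfia1, Ppfibp1 and Ppfibp2), of which Ppfia1 and Ppfibp1 were named after their values were seen. Ppfibp2, a liprin-beta gene, had 5.54 and 5.72 FPKM in 4E-T and 2.73 and 2.39 FPKM in IgG, without overlap. Its log2 fold change was 0.90 (adjusted p = 0.00298 in limma, 0.00184 on reads, 0.0792 after quantile normalization and 0.254 with no block). Ppfia1, which encodes the widely expressed liprin-alpha-1, had 24.1 and 28.3 FPKM in 4E-T and 12.3 and 17.7 FPKM in IgG (adjusted p = 0.0295 in limma, 0.0551 on reads and 0.453 with no block). The most abundant relatives did not pass: Apba2, the gene of the Munc18-binding adaptor Mint2, had a log2 fold change of 0.39 and Lin7b, a partner of CASK, one of 0.62. Rph3a, the gene of the Rab3 effector rabphilin, was the lowest, with 14.7 and 24.3 FPKM in 4E-T and 12.8 and 33.1 FPKM in IgG.

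Vesicle and SNARE genes (41 tested) had a median 0.15 below that of all genes, with 14 of 41 above it, but the median stood at -0.55 without IgG replicate 1 and turned to 0.09 above without IgG replicate 2. While 5 rose (12.2% of the list, against 17.5% of all genes) and 2 fell (4.88%, against 4.44%), the split was 4 higher and 12 lower (29.3%, against 9.23%) after quantile normalization and 3 higher and 6 lower (14.6%, against 11%) on reads. Vamp1, a vesicle SNARE gene, had 5.59 and 6.20 FPKM in 4E-T and 2.46 and 2.49 FPKM in IgG. Its log2 fold change was 0.99 (adjusted p = 0.000974 in limma, 0.0486 after quantile normalization and 0.231 with no block). Both 4E-T libraries lay above both IgG libraries. Vamp2, the abundant related SNARE gene, had 152 and 163 FPKM in 4E-T and 130 and 243 FPKM in IgG and did not pass. Synpr and Syp fell, and Syp was named after its values were seen; both encode vesicle membrane proteins of the synaptophysin family. Synpr had 31.4 and 29.2 FPKM in 4E-T and 40.6 and 70.3 FPKM in IgG. Its log2 fold change was -0.80 (adjusted p = 0.0358 in limma and 0.514 with no block), and -0.41 without IgG replicate 2. Syp had 18.6 and 30.9 FPKM in 4E-T and 21.1 and 80.1 FPKM in IgG (log2 fold change -0.76, adjusted p = 0.0449 in limma and 0.681 with no block). It stood at -1.70 without IgG replicate 1 and turned to 0.18 without IgG replicate 2, so its direction rested on that library. Syt11, a synaptotagmin gene, had 83.5 and 168 FPKM in 4E-T and 66.1 and 202 FPKM in IgG and did not pass.

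Calcium channel genes of the presynapse (10 tested) lay above the median of all genes in 9 of 10, with a median 0.29 above it, and 0.11 above it without IgG replicate 1. In this list 2 rose (20% of it, against 17.5% of all genes) and 0 fell, against 1 and 0 on reads and 0 and 0 after quantile normalization. Cacna1a, which encodes the pore of P/Q-type channels that RIM and RIM-binding proteins hold at the active zone, had 12.1 and 17.9 FPKM in 4E-T and 6.63 and 9.14 FPKM in IgG. The groups did not overlap. Its log2 fold change, the highest of the list, was 0.84 (adjusted p = 0.0091 in limma, 0.0642 after quantile normalization and 0.384 with no block). Cacna1b, the gene of N-type channels, was the lowest of the list at a log2 fold change of 0.15. The most abundant, Cacna2d3 and Cacnb3, had log2 fold changes of 0.34 and 0.48 and did not pass.

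Adhesion genes of the synapse (24 tested) had a median 0.15 above all genes, which turned to -0.03 without IgG replicate 1 and was 0.31 without IgG replicate 2. In this list 4 rose (16.7% of it, against 17.5% of all genes) and 0 fell, against 2 higher and 4 lower after quantile normalization and 3 higher and 1 lower on reads. Slitrk1, a postsynaptic partner of receptor tyrosine phosphatases, had 6.48 and 6.89 FPKM in 4E-T and 2.17 and 3.93 FPKM in IgG. Its log2 fold change was 0.96 (adjusted p = 0.0013 in limma and 0.271 with no block), and 0.64 without IgG replicate 1. Cadm2, the lowest at -0.52, did not pass (adjusted p = 0.195 in limma) but was the 1 gene called lower on reads (adjusted p = 0.00685), and stood at 0.06 without IgG replicate 2. Ptprs, a receptor phosphatase that binds liprins-alpha, had 136 and 194 FPKM in 4E-T and 75.0 and 182 FPKM in IgG and did not pass. Clstn1, a calsyntenin gene, had a log2 fold change of -0.06.

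Postsynaptic scaffold genes (26 tested), the counterpart across the cleft, had a median 0.08 above all genes, which turned to -0.15 without IgG replicate 1 and was 0.31 without IgG replicate 2. In this list 5 rose (19.2% of it, against 17.5% of all genes) and 0 fell, against 2 higher and 1 lower after quantile normalization and 3 and 0 on reads. Cnksr2, a scaffold of the postsynaptic density, had 14.1 and 22.8 FPKM in 4E-T and 5.84 and 12.8 FPKM in IgG (log2 fold change 0.96, adjusted p = 0.00292 in limma). Its value was 0.45 without IgG replicate 1, 1.47 without IgG replicate 2 and 0.63 without 4E-T replicate 2. Dlgap4, of the family that joins PSD-95 to Shank proteins, had a log2 fold change of 0.93 (adjusted p = 0.0124 in limma) and of 0.57 without IgG replicate 1. Begain, the gene of a PSD-95 partner, did not pass, and Shank3 was the lowest at -0.22, with 8.58 and 11.8 FPKM in 4E-T and 6.22 and 22.1 FPKM in IgG. Endocytic scaffold genes (26 tested) had a median 0.11 above all genes, which turned to -0.25 without IgG replicate 1, -0.06 without 4E-T replicate 2 and -0.08 after quantile normalization, and was 0.34 without IgG replicate 2. In this list 4 rose (15.4% of it, against 17.5% of all genes) and 0 fell, against 4 and 1 after quantile normalization and 4 and 0 on reads. Dnm2, the ubiquitous dynamin gene, had 64.5 and 93.9 FPKM in 4E-T and 25.3 and 51.7 FPKM in IgG (log2 fold change 1.08, adjusted p = 0.00337 in limma), and stood at 0.58 without IgG replicate 1. The clathrin adaptor genes Ap2m1 and Ap2s1 had log2 fold changes of 0.13 and 0.08, and Epn1 was the lowest at -0.11.

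**Figure D5:**
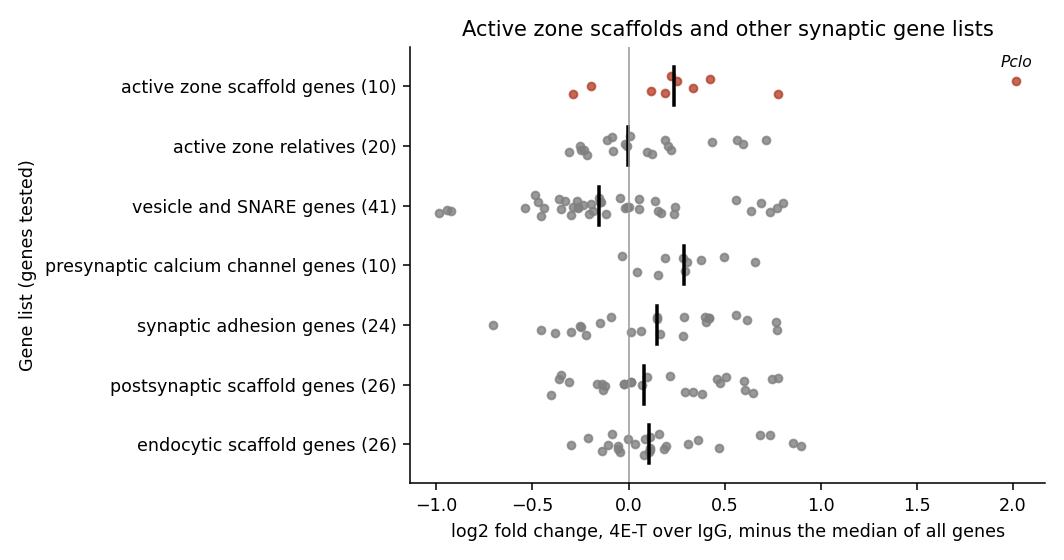
Log2 fold change, 4E-T over IgG, minus the median of all genes, with 1 point per tested gene in each list and a black bar at the list's median; the scaffold genes are in red at the top. Pclo stands at 2.02, while the 147 genes of the other lists and the other 9 scaffold genes lie closer to 0.

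Markers of the cells that the niche holds were set beside these values, and none was at 0 in any library. Neuron markers lay above the median of all genes in 11 of 16, and summed to 3711 and 4636 RPM in 4E-T and 3483 and 4410 in IgG, so they were nearly equal between antibodies within each experiment. Striatal neuron markers (8 of 12 above) summed to 2167 and 3173 in 4E-T and 1864 and 2809 in IgG, and neuroblast markers (10 of 17 above) to 4363 and 4442 in 4E-T and 4294 and 4984 in IgG. Stem cell and astrocyte markers (4 of 14 above) summed to 4507 and 6309 in 4E-T and 5373 and 8630 in IgG. Oligodendrocyte lineage markers (3 of 11 above), microglia markers (2 of 10) and ependymal markers (3 of 10) lay mostly below the median of all genes. Vascular markers lay below it in all 12, at 279 and 330 RPM in 4E-T and 989 and 420 in IgG. The median of the neuron markers relative to all genes was 0.21, -0.27 without IgG replicate 1 and 0.46 without IgG replicate 2, and those of the striatal and neuroblast markers turned below 0 without IgG replicate 1 as well. Without 4E-T replicate 2 the neuron and striatal medians were -0.12 and -0.12, and the neuroblast median was 0.06. After quantile normalization the neuron median was 0.03. The stem cell and astrocyte median (-0.16) and the oligodendrocyte lineage median (-0.24) turned to 0.20 and 0.18 without IgG replicate 2. They turned to 0.16 and 0.10 without 4E-T replicate 1. The vascular median was -0.97, -0.47 without IgG replicate 1 and -1.59 without IgG replicate 2. Camk2b and Map2, the most abundant neuron markers, had log2 fold changes of 0.39 and 0.46. Cldn5 and Rgs5, the most abundant vascular markers, had log2 fold changes of -1.22 and -0.83. The part of any of these in the values of the scaffold genes was not tested.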

How the data were processed

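Per the submitters' processing notes, STAR 2.6.0c and HTSeq 0.6.1p2 were used with the mm10 build, next to Trim Galore 0.5.0 and FastQC 0.11.5, and DESeq and DESeq2 1.26.0 are named as well. For annotation and strand, the settings were not given in the sources used here. Per the labels, a MAGNA RIP kit gave the RNA, and cDNA and libraries were made with the SMART-Seq v4 and Nextera XT kits. The authors deposited FPKM for each of the 4 libraries. Per the file headers, the table also holds the authors' DESeq2 comparison: a mean normalized signal, a Wald score, the fold change both as a ratio and on the log2 scale with its error, and p-values before and after adjustment.

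The 17651 of 35147 genes that reached a mean of 1 FPKM entered the fit. Values of log2(FPKM + 1) were modelled by antibody alone in limma (3.58.1, under R 4.3.3), with trend and robust moderation, a two-sided test and Benjamini-Hochberg adjustment over all genes tested (threshold 0.05). Fold changes on this scale understate those of low genes. Exact permutation of 2 against 2 libraries cannot go below p = 0.333. The experiment number in the titles was read as a shared batch. Same-numbered libraries deviated together from their group means (correlation across genes 0.67, and 0.49 after quantile normalization). Only the fits with the block treat the libraries as paired by number. The printed SEs and the fits that leave out a library have no block and so ignore this pairing. With the block the SE was 0.26 for Pclo and 0.27 for Rims1. Blocked values are printed where they change a call. The blocked fit has 1 residual degree of freedom.

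A single read has a fixed worth in each gene's FPKM, and together with the deposited mean signal this gave back reads for every gene and library (100% of values whole within 0.001, lowest total 10). The read-based fit was limma-voom on these reads with TMM scaling (trims 0.3 and 0.05) and the block. Model lengths are relative, from reads over FPKM. The fits and the recovery of reads were run on simulated data with known answers, as a check of the code only. Nothing about the fits on the 4 libraries is read from that. Scripts used Python 3.11.15, and gene spans came from RefSeq. Alternatives were a pseudocount of 0.1, no filter, a minimum mean FPKM of 5, quantile normalization and leaving out each library.

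The members and lists were chosen with earlier results of these data known. Named in each synaptic list were the 2 genes of highest mean FPKM and those with the highest and lowest log2 fold change, and exceptions are marked. The 2 most abundant genes of each marker list fall under the same rule; they are named for the neuron and vascular lists, and the others are given by counts and sums.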

Additional observations from a re-analysis of the deposited data

Results flagged for a closer look

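Bsn and Rims1 moved in opposite directions in the experiments. On log2(FPKM + 1), 4E-T minus IgG was 0.58 for Bsn in experiment 1 and -0.61 in experiment 2. For Rims1 it was 0.32 in experiment 1 and -0.53 in experiment 2. Each value rests on 1 library per antibody, and the difference between the experiments was not tested. On that scale opposite signs were seen in 2 of the 10 scaffold genes and in 32% of all tested genes. On shares of gene reads the tally was another: 5 of the 10 had opposite signs (Bsn, Rims2, Unc13a, Erc1 and Ppfia3), against 25% of all tested genes. Rims1 had a lower share in 4E-T in both experiments, but in experiment 1 it lay at the median of all genes on log2(FPKM + 1). For Unc13a, Erc1 and Ppfia3 the counting interval of the ratio in experiment 2 included 1.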

How the results depend on the processing

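Counts of calls over all genes depended on the block and on single libraries. Limma with no block called 1 gene higher and 0 lower. With the replicate block the counts were 3090 higher and 784 lower, with quantile normalization and the block 1843 and 1630, and on recovered reads with the block 2400 and 1941. Without a block, quantile normalization, recovered reads and no filter each gave 0 higher and 0 lower, and a minimum mean FPKM of 5 gave 177 and 8. Leaving out 1 library gave 2 to 2441 higher and 0 to 1094 lower. Relative to the median of all genes, Pclo, Ppfia2 and Erc2 were above 0 in all 13 fits, at 1.85 to 2.27, 0.57 to 1.03 and 0.22 to 0.68. The other 7 genes crossed 0 in at least 1 fit, and each of the 7 was lowest without IgG replicate 1. The median of the 10 ran from -0.06 without IgG replicate 1 to 0.52 without IgG replicate 2; the cause was not tested. Each of the 10 genes had at least 304 reads in every library, and each antibody had 2 libraries; how depth limits the values was not tested.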
